A study of Mus musculus with 14 samples.

Results

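The 10 genes described here are named for their place in blood vessels and in the growth of new ones: *Vegfa*, *Kdr*, *Flt1*, *Tek*, *Eng*, *Pecam1*, *Cdh5*, *Cldn5*, *Emcn* and *Vwf*. They were chosen by symbol, 1 row each, from the 56414 genes of a bulk RNA-seq table of 14 mouse mammary tumors, and all 10 were found. C57Bl/6 females received a subcutaneous pellet of the progestin medroxyprogesterone acetate (MPA) at 6 to 9 weeks of age and then oral 7,12-dimethylbenz[a]anthracene (DMBA), a carcinogen, and the tumors that grew are called M/D-driven. AT3 tumors grew in C57Bl/6 mice from a subcutaneous injection of AT3 cells, a mouse mammary cancer line, so all of them come from 1 line. Each model has tumors left untreated and tumors from mice that drank water with 0.5% nicotinamide (NAM), the amide form of vitamin B3, for 10 days from when the tumor had reached the size set for randomization. The M/D-driven group has 4 tumors of each kind and the AT3 group 3 of each, with 1 library made from each tumor. The comparisons ask how NAM changed the transcriptome of established tumors in each model.

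Blood vessels are lined by endothelial cells. Hypoxic or growing tissue secretes VEGF-A, which binds the receptors VEGFR2 and VEGFR1 on these cells and drives sprouting, while angiopoietins act on the receptor Tie2 and decide whether vessels stabilize or remodel. Tumors depend on such vessels for oxygen, and immune cells leave the blood across the junctions and adhesion molecules of the same endothelium. In RNA from a whole tumor, fewer endothelial cells and less RNA per endothelial cell cannot be told apart.

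*Vegfa* encodes the ligand VEGF-A, which cancer cells, macrophages and stroma also make (GSMG0017585, chr17:46016996-46032377, minus strand of mm10). *Kdr* encodes VEGFR2, the main signaling receptor (GSMG0030642, chr5:75932837-75978461, minus strand), and *Flt1* on the same chromosome encodes VEGFR1, which binds VEGF-A tightly and exists in a soluble decoy form (GSMG0031379, chr5:147561606-147726013, minus strand). *Tek* encodes Tie2 (GSMG0026745, chr4:94739289-94874976, plus strand), and *Eng* encodes endoglin, a TGF-beta and BMP co-receptor (GSMG0020929, chr2:32646595-32682669, plus strand). At cell contacts, *Pecam1* encodes CD31 (GSMG0007522, chr11:106654213-106750629, minus strand), *Cdh5* encodes VE-cadherin, the adherens junction cadherin of endothelium (GSMG0037685, chr8:104101625-104144502, plus strand), and *Cldn5* encodes the tight junction protein claudin-5 (GSMG0014759, chr16:18776846-18778262, plus strand). *Emcn* encodes endomucin, a sialomucin of capillary and venous endothelium (GSMG0024993, chr3:137341078-137433238, plus strand), and *Vwf* encodes von Willebrand factor, stored in endothelial cells and platelets (GSMG0032492, chr6:125532586-125686679, plus strand). The longest GENCODE transcript ranged from 1416 bases for *Cldn5* to 8834 bases for *Vwf*.

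The RefSeq table of mouse promoters (GRCm38.p6) held windows for 7 of the 10 genes, with none for *Pecam1*, *Cdh5* and *Vwf*. The 250 bases before the start are shown for *Vegfa* and the genes of its 2 receptors, and for *Cldn5*. The log2 fold changes of *Cldn5* after NAM had opposite signs in the 2 models, as did those of *Vegfa* and *Emcn*. Capitals mark GGAAG, a core of ETS factor sites, ACGTG, a core of hypoxia response elements, and GGGCGG, a GC box, each searched on both strands. The windows are on the minus strand at chr5:75978456-75978705 (*Kdr*), chr5:147726012-147726261 (*Flt1*) and chr17:46032378-46032627 (*Vegfa*, 1 of 2 windows), and on the plus strand at chr16:18776597-18776846 (*Cldn5*), and all are written 5′ to 3′ along the gene.
Kdr: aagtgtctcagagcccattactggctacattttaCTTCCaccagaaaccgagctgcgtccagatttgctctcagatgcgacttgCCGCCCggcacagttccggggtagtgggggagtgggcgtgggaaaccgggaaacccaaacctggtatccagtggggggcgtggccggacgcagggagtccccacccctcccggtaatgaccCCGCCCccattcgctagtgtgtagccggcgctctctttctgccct
Flt1: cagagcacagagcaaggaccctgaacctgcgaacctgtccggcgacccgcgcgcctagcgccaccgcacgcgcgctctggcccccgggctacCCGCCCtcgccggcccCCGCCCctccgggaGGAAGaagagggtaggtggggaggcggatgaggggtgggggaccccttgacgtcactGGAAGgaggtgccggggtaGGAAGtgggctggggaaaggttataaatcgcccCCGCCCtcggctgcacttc
Vegfa: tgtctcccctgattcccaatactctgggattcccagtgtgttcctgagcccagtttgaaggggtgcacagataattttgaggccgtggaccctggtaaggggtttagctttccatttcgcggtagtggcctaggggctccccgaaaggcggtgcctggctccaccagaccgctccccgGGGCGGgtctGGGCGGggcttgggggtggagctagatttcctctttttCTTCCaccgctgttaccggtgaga
Cldn5: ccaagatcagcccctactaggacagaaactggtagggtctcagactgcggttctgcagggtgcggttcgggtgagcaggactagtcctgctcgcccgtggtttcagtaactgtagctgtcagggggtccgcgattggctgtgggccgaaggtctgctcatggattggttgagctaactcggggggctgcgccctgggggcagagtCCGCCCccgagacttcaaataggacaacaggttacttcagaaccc
Of the 7 genes with a window, 5 held GGAAG (*Kdr*, *Flt1*, *Vegfa*, *Eng* and *Emcn*), against 64.1% of the 32851 windows of this length in the table. GGGCGG was in the windows of 4 (*Kdr*, *Flt1*, *Vegfa* and *Cldn5*), against 32.7% of all windows, and ACGTG was in 0 of 7, against 16.6%. The *Tek* window held none of the 3 motifs.

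The tumors gave 40936868 to 84178009 reads on genes, and the lowest value of the 10 genes in any tumor was 60.9 normalized counts, for *Kdr*. The models were scaled apart: the median gene of an M/D-driven tumor stood at 1.10 to 1.17 times its mean over all 14 tumors, and that of an AT3 tumor at 0.837 to 0.895 times. The library labelled M/D NAM-treated 1, the only M/D-driven tumor of experiment 2 by its label, stood apart. Its 10 precursor B cell markers summed to 272862 normalized counts, against 2459 to 6173 in the other 7 M/D-driven tumors, and its 9 epithelial markers to 7726, against 251718 to 1014010. For M/D-driven tumors, the effect of NAM on each of the 10 genes and on each gene that passed is therefore also given without it. The tissue label, mammary tumor, had its epithelial markers in the other tumors, *Epcam* being between 16166 and 62247 normalized counts there. No label says whether tumors came from separate animals, so p-values measure the spread between these tumors.

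**Figure D1:**
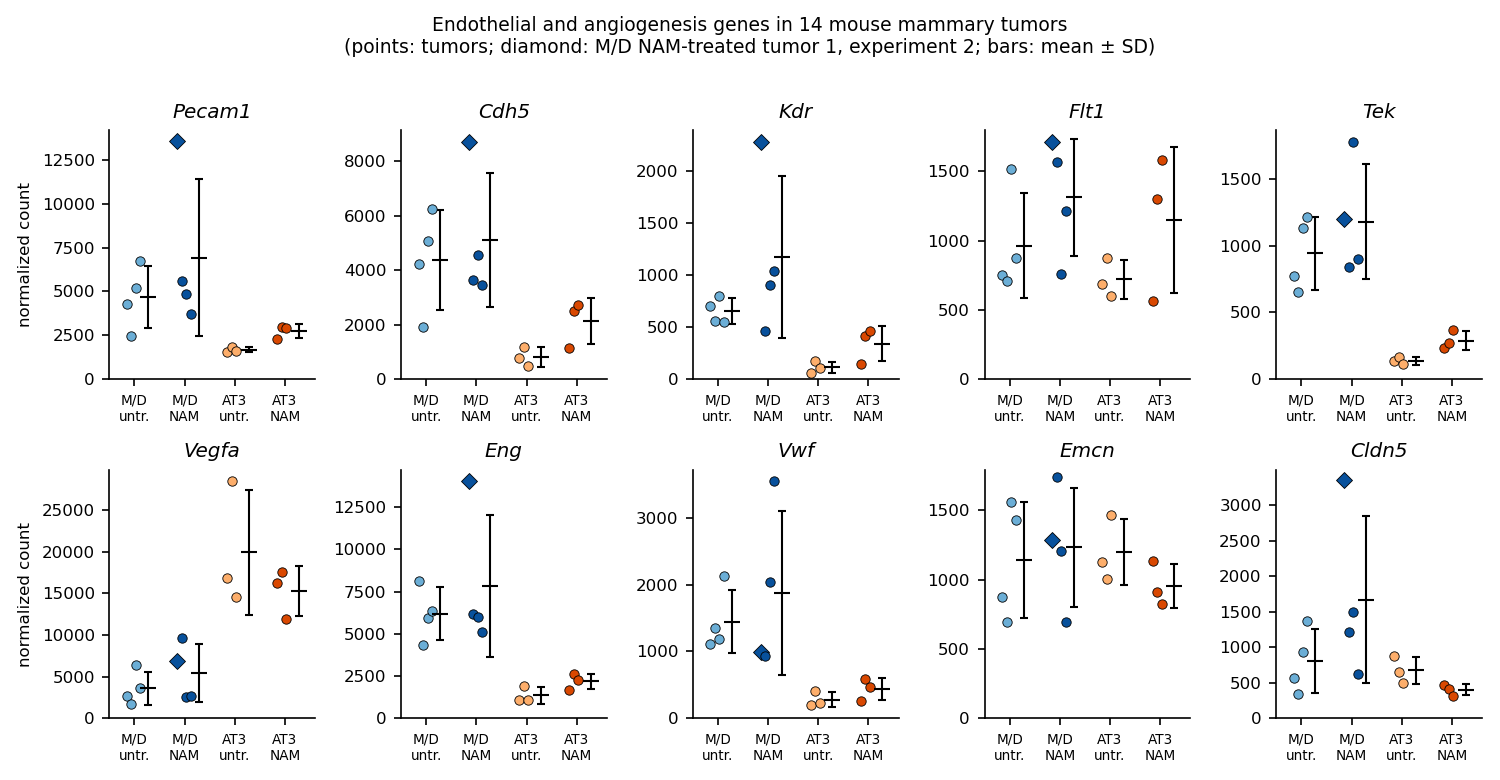
Normalized counts (DESeq2 size factors, set within each model by the authors; linear axis from 0) of the 10 genes in each of the 14 tumors, with the mean ± SD of each group; the diamond is M/D NAM-treated tumor 1. *Vegfa* is at 11849.6 or above in all 6 AT3 tumors and at 9680.2 or below in all 8 M/D-driven ones, whereas *Tek* and *Eng* lie lower in every AT3 tumor than in every M/D-driven one.

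Per kilobase of the longest transcript, *Eng* and *Pecam1* were the most abundant of the 10 genes in untreated M/D-driven tumors, at 1808 ± 454 and 1359.7 ± 516 normalized counts per kb (SD, n = 4). They were followed by *Cdh5* (1095 ± 461), *Vegfa* (1046 ± 576), *Cldn5* (569 ± 318), *Emcn* (323 ± 119), *Tek* (203 ± 58.7), *Vwf* (164 ± 53.3), *Flt1* (139.7 ± 54.8) and *Kdr* (110.2 ± 20.8). The ranges of all neighbors in that order overlapped. In untreated AT3 tumors the order began with *Vegfa* at 5775 ± 2169 normalized counts per kb (SD, n = 3), and its range did not overlap that of the next gene, *Pecam1* (483 ± 43.2). *Cldn5*, *Eng*, *Emcn* and *Cdh5* lay at 476 ± 133, 395 ± 139, 341 ± 67.8 and 203 ± 88.7, and *Flt1* at 104 ± 20.6. Below a gap with no overlap came *Vwf* (31.1 ± 12.7), *Tek* (29.5 ± 6.21) and *Kdr* (19 ± 9.12). The VEGFR2 transcript thus had the lowest mean of the 10 per kb in the untreated tumors of both models. Its range overlapped that of its neighbor in each. In NAM-treated M/D-driven tumors *Eng* again came first (2286 ± 1222 per kb) and *Flt1* last (190.3 ± 61.5). In NAM-treated AT3 tumors *Vegfa* came first (4411 ± 866 per kb) and *Vwf* last (49.2 ± 18.9). Lengths come from GENCODE and not from the counted regions, so levels per kb are approximate.

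The first comparison set M/D-driven tumors given NAM against those left untreated. By limma, 0 of the 10 genes passed the thresholds of the study (p at most 0.05 and a change of at least 1.5-fold), where 6.22% of the 21700 genes tested did, and 0 had a p under 0.05 at all. By edgeR and DESeq2 0 passed too, where 7.54% and 9.64% of all genes did. The log2 fold changes ranged from 0.12 for *Emcn* to 0.97 for *Cldn5*. All 10 were above 0, where 51.1% of all genes were, with a median of 0.38 against 0.01 over all genes. Without M/D NAM-treated 1, which also leaves only experiment 1, 8 of the 10 stayed above 0, where 49.8% of all genes did, the median was 0.25 and 0 genes passed (5.17% of all genes). The treated and untreated tumors overlapped for each of the 10 genes, where 4.43% of all genes had groups without overlap.

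*Vegfa* was at 2691, 1751, 6361 and 3639.8 normalized counts in the untreated M/D-driven tumors and at 6819.5, 9680.2, 2514 and 2662 in the NAM-treated ones. NAM-treated tumors 1 and 2 stood above all untreated tumors and tumors 3 and 4 lay among them. Of the 19 hypoxia genes counted below, NAM-treated tumor 2 had the highest value of the 8 M/D-driven tumors for 12. Their sum was 270949 normalized counts there, against 99386 to 166308 in the other M/D-driven tumors. Whether this bears on *Vegfa* was not tested. The log2 fold change of *Vegfa* was 0.50 (SE 0.55), or 0.31 without tumor 1. Its receptor gene *Kdr* was at 706, 553, 802 and 549.6 in untreated tumors and at 2278, 457, 907 and 1039 in NAM-treated ones. The lowest of the 8 values belonged to a NAM-treated tumor and so did the 3 highest, for a log2 fold change of 0.63 (SE 0.45) that went to 0.23 without tumor 1 and to 1.00, past the thresholds, without NAM-treated tumor 2. In that last fit 2712 of the 21837 genes tested passed. *Flt1* was at 752, 708, 1519.9 and 873 against 1709.5, 1567, 758 and 1215, with 2 of the NAM-treated tumors above every untreated one (0.45, SE 0.35; 0.30 without tumor 1).

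*Tek* was at 772, 653, 1135 and 1215 in untreated M/D-driven tumors and at 1196, 838, 1779 and 896 after NAM. Only NAM-treated tumor 3 lay above the untreated range, and the log2 fold change was 0.30 (SE 0.32), or 0.27 without tumor 1. *Eng*, the TGF-beta co-receptor, was at 8119.6, 4329.7, 5964 and 6337 against 14053, 6161, 5991 and 5087. NAM-treated tumor 1 was thus alone above the untreated tumors, and the log2 fold change of 0.25 (SE 0.35) became -0.08 without it.

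*Pecam1* was at 4309.6, 2469, 5223 and 6714 in untreated M/D-driven tumors and at 13593, 5606, 4863 and 3690.2 in NAM-treated ones. *Cdh5* was at 4241, 1905, 5082 and 6266 against 8723, 3639, 4571 and 3454. For both junction genes tumor 1 was the highest of the 8 and untreated tumor 2 the lowest, and the log2 fold changes of 0.47 (SE 0.45) and 0.24 (SE 0.43) went to 0.08 and -0.05 without tumor 1. *Cldn5* was at 569, 346, 933 and 1375 in untreated tumors and at 3348, 1217, 1497 and 618 after NAM. Its log2 fold change of 0.97 (SE 0.58; adjusted p = 0.754 by limma, exact permutation p = 0.2) was the largest of the 10, went to 0.55 without tumor 1, and passed the thresholds at 1.36 without NAM-treated tumor 4. In that last fit 1169 of the 21408 genes tested passed. *Emcn* was at 875, 694, 1557 and 1428 against 1289, 1740.2, 1208 and 692, and *Vwf* at 1118, 1354, 1179.8 and 2137 against 997, 927, 2038 and 3551. Both ranged wider in NAM-treated than in untreated tumors, with log2 fold changes of 0.12 (SE 0.37) and 0.20 (SE 0.45), or 0.07 and 0.43 without tumor 1.

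M/D NAM-treated 1 had the highest value of the 8 tumors for 6 of the 10 genes (*Pecam1*, *Cdh5*, *Kdr*, *Flt1*, *Eng* and *Cldn5*), and untreated tumor 2 had the lowest for 7 (*Pecam1*, *Cdh5*, *Flt1*, *Tek*, *Vegfa*, *Eng* and *Cldn5*). Untreated tumor 2 also had the lowest sum of fibroblast markers, 91425 normalized counts against 164672 to 518890 in the other M/D-driven tumors. It was lowest for adipocyte markers too, at 27399 against 33451 to 92328. Its pericyte and epithelial sums lay within the range of the others. Besides its lymphoid and epithelial marker sums, NAM-treated tumor 1 had 9163 normalized counts of *Erg*, an ETS factor gene, against 199 to 444 in the other 7. *Cd93*, a surface receptor gene, was at 6271, against 979 to 1784. Both genes are counted in endothelial lists below, but which cells of this tumor made them was not tested. Whether the other cells of either tumor contributed to the levels of the 10 genes was not tested.

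**Figure D2:**
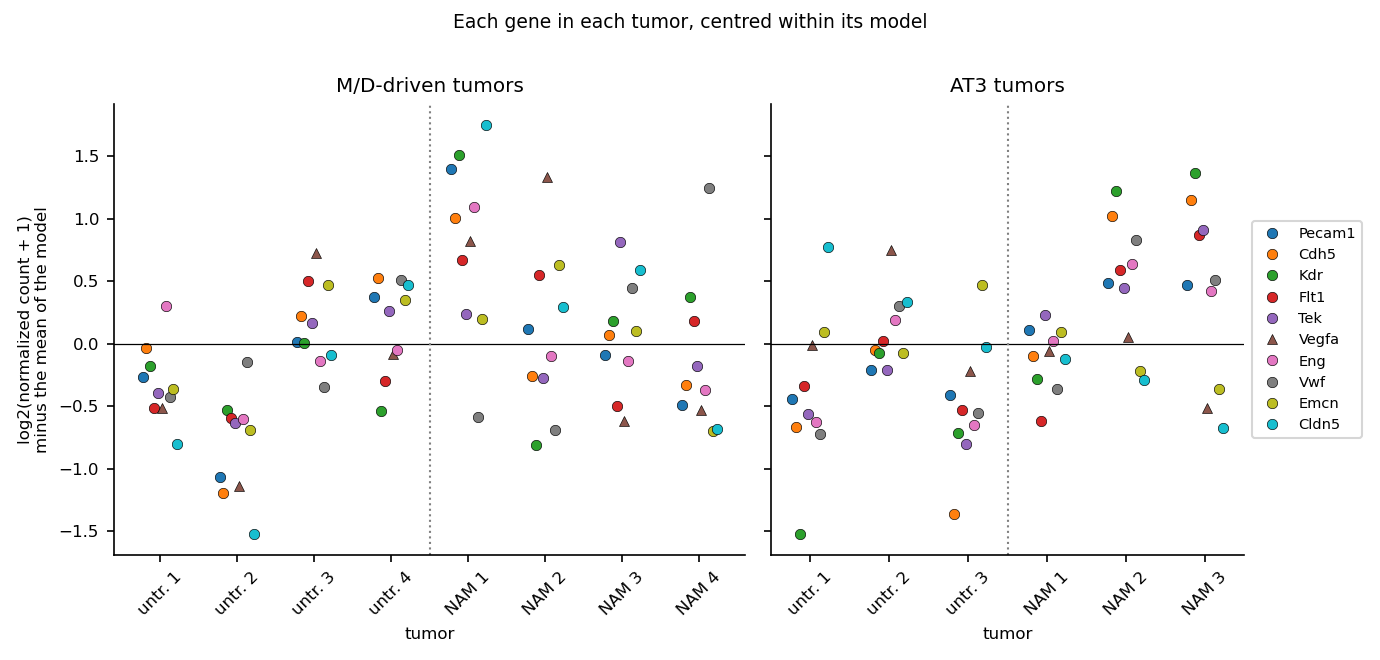
Each of the 10 genes in each tumor, as log2(normalized count + 1) minus the mean of that gene over the 8 M/D-driven or the 6 AT3 tumors (vertical axis); circles are the 9 endothelial genes, triangles *Vegfa*, and the dotted line parts untreated from NAM-treated tumors. In M/D-driven tumors untreated 2 has 7 of the 10 lowest values and NAM-treated 1 has 6 of the highest, whereas in AT3 tumors *Cdh5*, *Kdr* and *Tek* are highest in NAM-treated 3.

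In AT3 tumors, 6 of the 10 genes passed the thresholds, where 23.1% of the 19281 genes tested did. *Kdr*, *Cdh5*, *Tek*, *Eng* and *Pecam1* rose after NAM, by 1.64-fold to 2.91-fold, where 12.2% of all genes rose, and *Cldn5* fell 1.65-fold, where 10.9% fell. The median log2 fold change of the 10 was 0.68, against -0.05 over all genes, and 7 were above 0, where 47.5% of all genes were. By edgeR and DESeq2 the same 6 passed, where 24.2% and 26.2% of all genes did. No gene of the 10 passed after adjustment over all genes by limma, the lowest adjusted p being 0.166, and of all genes 1 did (0.00519%), 0 by edgeR and 2047 by DESeq2 (10.6%). By limma 4681 genes had an unadjusted p under 0.05. By DESeq2, adjusted p was 0.0212 for *Pecam1*, 0.0204 for *Cdh5*, 0.0269 for *Kdr* and 0.0212 for *Tek*, and above 0.05 for the other 6 genes.

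*Kdr* was at 60.9, 169 and 107 normalized counts in untreated AT3 tumors and at 146, 415 and 458 in NAM-treated ones. NAM-treated tumor 1 lay between untreated tumors 2 and 3 and the other two far above them, for a log2 fold change of 1.54 (SE 0.51; adjusted p = 0.168 by limma, exact permutation p = 0.2). *Flt1* was at 684, 876 and 599 against 561, 1303 and 1582, so that NAM-treated tumor 1 was the lowest of the 6 and tumors 2 and 3 the highest (0.56, SE 0.38). *Vegfa* was at 16809, 28469.6 and 14512 in untreated tumors and at 16272, 17540.4 and 11849.6 after NAM. The ligand thus overlapped between the groups and its log2 fold change of -0.35 (SE 0.29) did not pass.

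*Tek* was at 132, 169 and 112 in untreated AT3 tumors and at 229.6, 266 and 368 in NAM-treated ones, without overlap. Its log2 fold change was 1.05 (SE 0.30; adjusted p = 0.166 by limma, exact permutation p = 0.1). *Eng* was at 1085, 1903 and 1067 against 1699, 2601 and 2245. Untreated tumor 2 lay above NAM-treated tumor 1, and the log2 fold change was 0.72 (SE 0.29; adjusted p = 0.184 by limma, exact permutation p = 0.2).

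*Pecam1* was at 1559, 1834 and 1598 in untreated AT3 tumors and at 2292, 2969 and 2939 after NAM, again without overlap (log2 fold change 0.71, SE 0.21; adjusted p = 0.166 by limma, exact permutation p = 0.1). *Cdh5* was at 772, 1181 and 475 against 1146, 2494 and 2721. Its untreated tumor 2 lay just above NAM-treated tumor 1, and its log2 fold change was 1.39 (SE 0.41; adjusted p = 0.166 by limma, exact permutation p = 0.2). *Cldn5* went the other way, from 875, 646 and 501 to 469, 417 and 321. Every NAM-treated tumor lay below every untreated one, for a log2 fold change of -0.72 (SE 0.28; adjusted p = 0.179 by limma, exact permutation p = 0.1). *Emcn* was at 1130.4, 1004 and 1466 against 1134, 909.7 and 826 (-0.32, SE 0.24), and *Vwf* at 199, 404 and 222 against 254, 583 and 467 (0.65, SE 0.39). The groups overlapped for both, and neither passed. In all, 3 of the 10 genes had groups without overlap (*Pecam1*, *Tek* and *Cldn5*), where 22.6% of all genes did, and the permutation p of 0.1 (two-sided) is the smallest that 3 against 3 tumors can give.

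The calls did not rest equally on all tumors. *Pecam1*, *Cdh5* and *Tek* passed whichever AT3 tumor was left out. Without untreated tumor 1, NAM-treated tumor 2 or NAM-treated tumor 3, these 3 alone passed, where 11.5%, 9.62% and 8.37% of all genes did, *Kdr* being at 1.16, 1.31 and 1.24, *Cldn5* at -0.52, -0.76 and -0.57 and *Eng* at 0.59, 0.59 and 0.69. *Eng* was also lost without untreated tumor 3 (0.58), where 13.4% of all genes passed. Without NAM-treated tumor 1, 8 of the 10 passed, with *Flt1* (1.01) and *Vwf* (1.00) added, and so did 33.2% of all genes. Without untreated tumor 2, 7 passed, with *Vwf* (0.96) added, and 35.7% of all genes did. NAM-treated tumor 1 was thus the treated tumor nearest to the untreated ones for most of these genes.

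**Figure D3:**
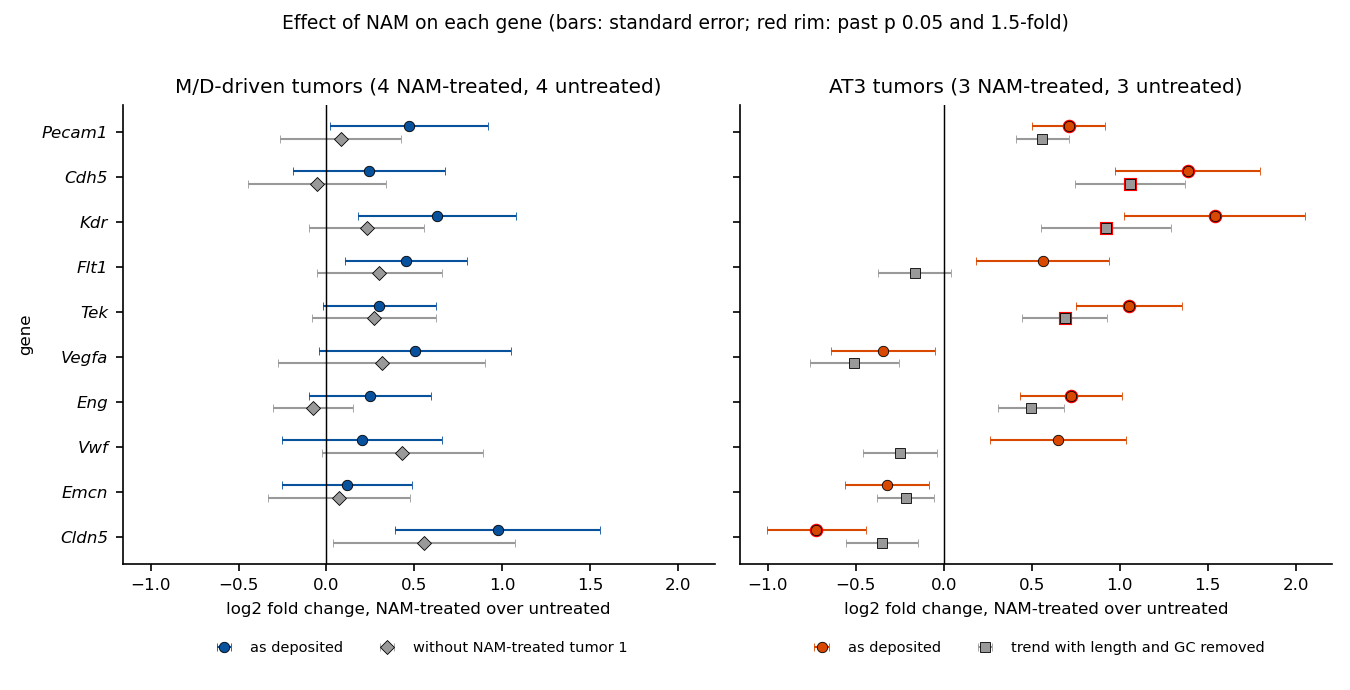
Log2 fold change of NAM-treated over untreated tumors for the 10 genes (horizontal axis, bars are the standard error) in M/D-driven and in AT3 tumors, with the values without M/D NAM-treated 1 and those after removal of the length and GC trend drawn beside the main ones; a red rim marks a gene past p 0.05 and 1.5-fold. In M/D-driven tumors all 10 lie above 0 with none past the thresholds, whereas in AT3 tumors 5 lie past them above 0 and *Cldn5* below.

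Changes in AT3 tumors moved with transcript length. Over the 16429 tested genes with a length, the log2 fold change correlated with length (Spearman's rho 0.59, across genes, which are not independent replicates); its median was -0.53 for transcripts under 2000 bases and 0.64 for those of 5000 bases or more. Such a trend was nearly absent from the NAM effect in M/D-driven tumors (rho -0.04). The deviation of single M/D-driven tumors from their model mean correlated with length at -0.31 in NAM-treated tumor 2. It did so at -0.06 to 0.15 in the others. Among AT3 tumors the deviation from the model mean correlated with length at -0.53 and -0.51 in untreated tumors 1 and 3 and at 0.56 and 0.59 in NAM-treated tumors 2 and 3, against -0.004 in untreated tumor 2 and -0.20 in NAM-treated tumor 1. *Cldn5*, the gene that fell, has the shortest transcript of the 10, and *Kdr*, with the largest rise, the third longest at 5924 bases.

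With the trend on length and GC content removed, *Cdh5* (1.06, SE 0.31), *Kdr* (0.92, SE 0.37) and *Tek* (0.69, SE 0.24) still passed the thresholds, where 15.7% of all genes with a length did. *Pecam1* (0.56, SE 0.15) and *Eng* (0.50, SE 0.19) kept a p at most 0.05 by limma but fell short of 1.5-fold, at 1.48-fold and 1.41-fold. *Cldn5* went to -0.35 (SE 0.20), *Flt1* and *Vwf* changed sign to -0.17 (SE 0.21) and -0.25 (SE 0.21), and *Vegfa* was at -0.51 (SE 0.25). The median of the 10 was then 0.17, against 0.03 over all genes, with 5 above 0, where 52.7% of all genes were. What made changes follow length was not tested.

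**Figure D4:**
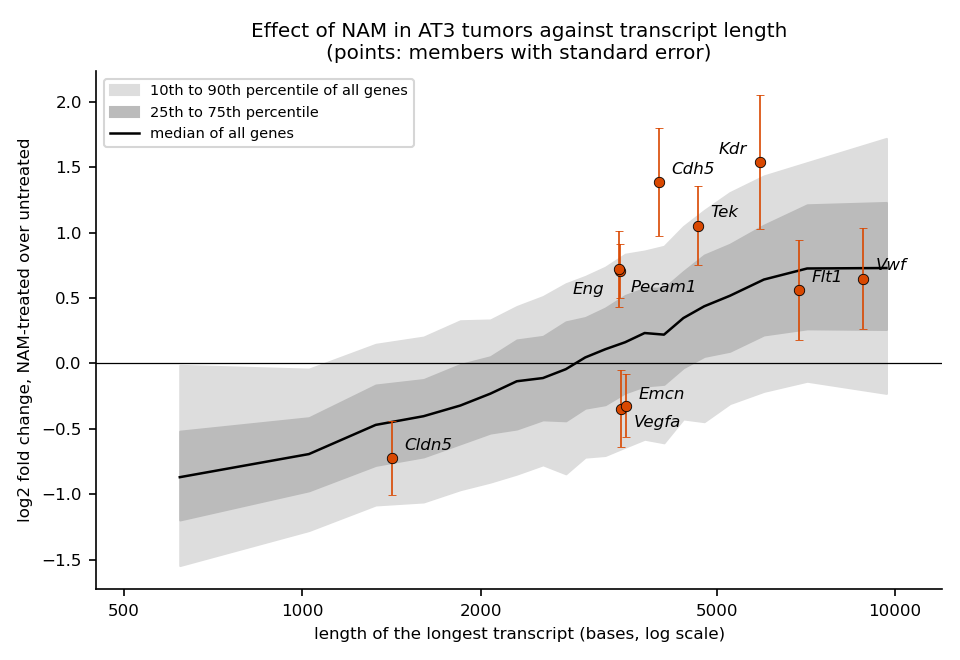
Log2 fold change of NAM-treated over untreated AT3 tumors (vertical axis) against the length of the longest transcript in bases (log axis); the line is the median of all genes in 20 bins of length, the bands span their 25th to 75th and 10th to 90th percentiles, and the points are the 10 genes with their standard error. *Cdh5*, *Kdr*, *Tek*, *Pecam1* and *Eng* lie above the median of genes of their length, *Cldn5*, *Flt1* and *Vwf* near it, and *Vegfa* and *Emcn* below it.

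The counts of lists that follow are read against the 12.2% of all genes that rose and the 10.9% that fell after NAM in AT3 tumors, which were 8.6% and 7.11% with the length and GC trend removed. The vessel wall also holds pericytes and smooth muscle cells. Of 11 of their markers, 6 rose in AT3 tumors (*Pdgfrb* 1.44, *Cspg4* 1.5, *Abcc9* 1.24, *Notch3* 1.48, *Myh11* 2.01 and *Mcam* 0.72) and 0 fell. Of these *Pdgfrb*, *Cspg4* and *Mcam* passed with the length trend removed, and the summed level was 18938 to 21211 normalized counts in untreated tumors and 22112 to 26686 in NAM-treated ones. The most abundant of them, *Acta2* and *Tagln*, were at 0.05 (SE 0.22) and -0.57 (SE 0.23) and did not pass. Of 7 macrophage markers 4 rose (*Adgre1* 1.05, *Csf1r* 1.04, *Mrc1* 0.82 and *Cd163* 1.06) and 0 fell, only *Adgre1* and *Cd163* passing with the length trend removed, the sums being 27817 to 48289 and 31128 to 44281. Of 7 fibroblast markers 1 rose (*Pdgfra*, 1.14), which did not pass with the length trend removed, where *Lum* did (0.90), with sums of 70512 to 219302 and 111494 to 305978. Of 9 epithelial markers, *Cdh1* (0.90) and *Esr1* (2.70) rose and *Krt19* (-1.24) and *Krt14* (-0.79) fell, 0 and 0 with the length trend removed, with sums of 80814 to 100565 and 73109 to 82337. *Esr1* was under 10 normalized counts in every untreated AT3 tumor, close to the counting limit. Of the 4 platelet markers tested of 8, 0 rose and *Itga2b* and *Pf4* fell, *Itga2b* alone with the length trend removed (sums of 2089 to 2701 against 1590.2 to 1928). None of 6 adipocyte markers tested passed, and of 7 precursor B cell markers tested *Ebf1* rose (1.38) and *Rag1* fell (-0.83). The part of these cells in the changes of the 10 genes was not tested.

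Of the same markers, 0 of 11 pericyte, 0 of 9 epithelial, 0 of 7 fibroblast, 0 of 7 macrophage, 0 of 9 lymphocyte, 0 of 10 precursor B cell and 0 of 5 platelet markers tested passed in M/D-driven tumors in either direction, where 6.22% of all genes did, and nothing is read from a count of 0 in lists this short. *Adipoq*, the fat cell hormone adiponectin, was the only adipocyte marker of 7 to pass (0.85, SE 0.21; 0.73 and still past the thresholds without M/D NAM-treated 1), with summed adipocyte markers at 27399 to 57765 in untreated and 35383 to 92328 in NAM-treated tumors. Without M/D NAM-treated 1 the epithelial marker *Cdh1* passed too, as lower, and none of the others did.

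The difference between the NAM effects of both models was tested directly, as the effect in AT3 tumors minus that in M/D-driven tumors. Of the 10 genes only *Cldn5* passed, where 14.9% of the 22710 genes tested did. Its difference was -1.70 on the log2 scale (SE 0.74; adjusted p = 0.317 by limma), set by effects of 0.97 in M/D-driven and -0.72 in AT3 tumors. It was -1.28 without M/D NAM-treated 1, -1.5 with the length trend removed and -1.57 with TMM scaling, and passed in none of these, nor in 8 of the 14 fits that left out 1 tumor. Of all genes 16.9% passed without M/D NAM-treated 1 and 11.3% with the trend removed. For *Cdh5* the difference was 1.15 (SE 0.66), for *Tek* 0.75 (SE 0.46) and for *Kdr* 0.91 (SE 0.75), with adjusted p of 0.415, 0.437 and 0.561 by limma. *Cdh5* passed without M/D NAM-treated 1 (1.44), without M/D untreated 2 (1.5) and without AT3 NAM-treated 1 (1.54), and *Tek* without M/D NAM-treated 3 (0.98). Of all genes, 3505 of 22718 passed without M/D untreated 2 and 4574 of 22720 without AT3 NAM-treated 1. Without M/D NAM-treated 3, 3309 of 22761 genes did. *Vegfa* was at -0.85 (SE 0.71), *Emcn* at -0.44 (SE 0.48), and *Pecam1*, *Flt1*, *Eng* and *Vwf* between 0.11 and 0.48. The passing of *Cdh5*, *Kdr*, *Tek*, *Eng* and *Pecam1* in AT3 but not in M/D-driven tumors was therefore not shown to be a difference between the models. No gene passed the adjusted threshold for this difference by limma or edgeR, and 840 did by DESeq2.

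The untreated tumors of both models were then compared. Each model is one experiment there, experiment 1 for M/D-driven and experiment 3 for AT3, so model and experiment cannot be told apart, and reads were rescaled together by TMM over all 14 tumors. These are the untreated tumors of the NAM comparisons too. Of the 10 genes, 6 were higher (*Tek*, *Kdr*, *Vwf*, *Cdh5*, *Eng* and *Pecam1*, by 2.25-fold to 5.69-fold) and *Vegfa* 6.96-fold lower, where 56.2% of the 21650 genes tested passed, 33.4% higher and 22.8% lower. All 7 passed after adjustment over all genes, as 51.3% of all genes did. Their groups did not overlap, where 53.9% of all genes had none, and each had an exact two-sided permutation p of 0.0571, the smallest that 4 against 3 tumors can give. The median log2 fold change of the 10 was 1.57, against 0.22 over all genes.

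*Vegfa* was at 2608, 1719.5, 6150.0 and 3449.8 TMM-scaled counts in untreated M/D-driven tumors and at 18767, 32583 and 16778 in untreated AT3 tumors. The highest M/D-driven tumor stayed far below the lowest AT3 tumor, with group means of 3482 ± 1914 (SD, n = 4) and 22709.5 ± 8609 (SD, n = 3). The log2 fold change was -2.80 (SE 0.42, adjusted p = 0.00103 by limma). *Kdr* lay in the opposite direction, at 685, 543, 775 and 521 against 68, 193 and 124. The lowest M/D-driven tumor was well above the highest AT3 tumor, and the log2 fold change was 2.39 (SE 0.37, adjusted p = 0.0012 by limma). *Flt1*, the other VEGF-A receptor, was at 729, 695, 1469.6 and 828 against 764, 1003 and 693, with full overlap (0.13, SE 0.30, adjusted p = 0.732 by limma).

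*Tek* was at 748, 641, 1097 and 1152 TMM-scaled counts in M/D-driven tumors and at 147, 193 and 129 in AT3 tumors. It had the largest rise of the 10 genes, at a log2 fold change of 2.51 (SE 0.29, adjusted p = 0.00035 by limma). *Eng* had means of 5973 ± 1484 and 1541 ± 551 (1.98, SE 0.28), and *Vwf* of 1395 ± 434 and 314 ± 130.1 (2.18, SE 0.33). *Cdh5* had means of 4208 ± 1729 and 921 ± 404 (2.17, SE 0.43), and *Pecam1* of 4503 ± 1652 and 1896 ± 184 (1.17, SE 0.31). *Cldn5* (774 ± 422 and 765 ± 200.1) and *Emcn* (1097 ± 395 and 1369 ± 288) overlapped between the models, at -0.13 (SE 0.44) and -0.37 (SE 0.31). Of the 9 endothelial genes, 6 were thus higher in M/D-driven tumors and *Flt1*, *Cldn5* and *Emcn* did not pass.

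These differences also depended on scaling and length. Upper-quartile scaling moved the median of all genes to -0.50. *Pecam1* then no longer passed (0.51) and *Emcn* passed as lower (-1.03), and all genes split into 4658 higher and 8370 lower instead of 7238 and 4938. With the values as deposited they split into 8402 and 3827. The correlation of the difference with transcript length was 0.32 over all genes. With the length and GC trend removed, *Kdr* was at 1.65, *Tek* at 2.11, *Cdh5* at 1.76, *Eng* at 1.68, *Pecam1* at 1.00, *Vwf* at 0.99 and *Vegfa* at -2.99, all still past the thresholds, and *Flt1* passed as lower (-0.77, SE 0.30; adjusted p = 0.0631 by limma), where 52.7% of all genes passed.

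Genes of the same pathways were counted from lists, against the shares of all genes given above: 12.2% rose and 10.9% fell after NAM in AT3 tumors, 6.22% passed in M/D-driven tumors, 14.9% passed for the difference between models, and 33.4% were higher and 22.8% lower in untreated M/D-driven tumors. Of 10 VEGF ligands and receptors, *Kdr* and *Nrp2*, a co-receptor, rose after NAM in AT3 tumors (1.54 and 1.60), and *Pgf*, the ligand placental growth factor, fell (-1.29). *Pgf* was at 5775, 3113 and 4872 normalized counts in untreated AT3 tumors and at 2296, 2252 and 1158 in NAM-treated ones, without overlap. These 3 also passed with the length trend removed, and in M/D-driven tumors 0 of the 10 passed, with or without NAM-treated tumor 1. *Pgf* ran in M/D-driven tumors from 453 to 6075 in untreated and from 1750.3 to 4508 in NAM-treated tumors, and the difference between the models passed (-2.61, SE 1.02; -2.80 without M/D NAM-treated 1). Between untreated tumors, 6 of the 10 were higher in M/D-driven tumors, among them *Nrp1* (1.73), *Nrp2* (3.21) and *Flt4*, the VEGFR3 gene (1.89), and 3 were lower, the ligands *Vegfa*, *Vegfb* (-1.15) and *Pgf* (-2.33). The remaining ligands *Vegfc* and *Vegfd*, which act on lymphatic vessels, were higher (1.11 and 0.93).

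Of 7 angiopoietin and Tie genes, 3 rose in AT3 tumors: *Tek*, its relative *Tie1* (0.73, SE 0.27) and *Angpt2*, the ligand that loosens vessels (0.87, SE 0.30). *Angpt2* was at 439, 276 and 399 in untreated and at 515, 904 and 635 in NAM-treated AT3 tumors, without overlap. With the length trend removed *Tie1* no longer passed (0.28) and *Svep1*, a ligand in the same pathway, passed as lower (-0.81). Only *Angpt4* passed in M/D-driven tumors, as lower (-3.14, SE 1.22), with 223, 44.5, 254 and 373 in untreated and 8.49, 136, 1.84 and 42.5 in NAM-treated tumors. It did not pass without NAM-treated tumor 1 (-2.78). *Tie1* itself was at 1473 to 3745 in untreated and 2264 to 5329 in NAM-treated M/D-driven tumors, with overlap. Between untreated tumors 5 of the 7 were higher in M/D-driven tumors and 0 lower, 2 and 0 with the length trend removed. The difference between models passed for 1 of the 7, *Angpt4*, above 0.

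Of 17 junction and surface genes of endothelium, 6 rose and 2 fell in AT3 tumors. Besides *Pecam1*, *Cdh5* and *Cldn5* these were *Podxl*, a sialomucin (1.56), *Cd93* (1.67), the junction scaffold gene *Tjp1* (0.98), *Mcam* (0.72) and, as the other gene that fell, the secreted angiogenic factor gene *Egfl7* (-0.67). With the length trend removed 6 rose and 0 fell, but *Pecam1* and *Tjp1* no longer passed and *Esam* and *Plvap* did (0.60 each). *Cd93* was at 242, 369.6 and 240.1 in untreated AT3 tumors and at 399.7, 1284 and 1364 in NAM-treated ones. The same 17 had 0 passing in M/D-driven tumors, with or without NAM-treated tumor 1. The difference between models passed for *Podxl* (2.97), *Tjp1* (1.92), *Mcam* (0.85), *Egfl7* (-1.55) and *Cldn5*, of which *Tjp1* and *Cldn5* were lost with the length trend removed. *Tjp1* was at 834 normalized counts in M/D NAM-treated 1 and *Podxl* at 648, the lowest of the 8 M/D-driven tumors in both cases. In that tumor 9 of the 17 genes had their highest value. *Podxl* was highest, at 8335, in M/D untreated 2, where 11 of the 17 had their lowest. Which cells made *Podxl* and *Tjp1* was not tested. Without M/D NAM-treated 1 the differences were 2.59 for *Podxl*, 1.45 for *Tjp1*, 0.84 for *Mcam* and -1.21 for *Egfl7*, all still past the thresholds. *Cdh5* and *Cd93* then passed in place of *Cldn5*. Between untreated tumors 11 of the 17 were higher in M/D-driven tumors and 1, *Egfl7* (-0.82), lower.

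Of 16 endothelial transcription factor genes, 7 rose and 0 fell in AT3 tumors. They were the ETS factor genes *Erg* (0.92), *Fli1* (0.98), *Ets1* (0.86) and *Ets2* (0.95), and *Sox7* (0.77), *Gata2* (1.55) and *Epas1*, which encodes HIF-2 alpha (1.65). With the length trend removed 6 rose and 0 fell, as *Erg*, *Ets1* and *Gata2* no longer passed and *Sox18* (0.64) and *Klf2* (0.75) did. *Epas1* was at 348, 611 and 407 in untreated AT3 tumors and at 789.8, 1862 and 1824 after NAM, without overlap. *Sox17*, an arterial factor gene, rose in M/D-driven tumors (1.15, SE 0.49) and *Klf4*, also expressed by epithelium, fell (-2.70, SE 1.00). *Klf4* was at 2377 to 29245 in untreated and at 888, 10187, 788 and 1421 in NAM-treated M/D-driven tumors. *Sox17* did not pass with the length trend removed (1.16, SE 0.52), and without NAM-treated tumor 1 neither gene passed, at 1.03 and -2.36. Between untreated tumors 12 of the 16 were higher in M/D-driven tumors and *Tal1* lower (-1.87). For the difference between models, 5 of the 16 passed above 0 and 0 below, or 6 and 0 without M/D NAM-treated 1.

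Of 14 Notch and tip cell genes, 4 rose in AT3 tumors (*Notch1* 1.23, *Heyl* 1.09, *Aplnr* 1.38 and *Unc5b* 1.16) and 0 fell, of which *Heyl* and *Aplnr* passed with the length trend removed. In M/D-driven tumors 0 passed, but *Cxcr4* passed as higher with the length trend removed and *Hey1* without NAM-treated tumor 1. Of 14 BMP and TGF-beta genes, 6 rose in AT3 tumors, including *Eng* and the receptor genes *Bmpr2* (1.88), *Tgfbr1* (1.38), *Tgfbr2* (0.98) and *Tgfbr3* (1.16) and the signal transducer gene *Smad5* (1.16), and the target genes *Id1* (-0.75) and *Id3* (-0.98) fell. Of these *Bmpr2*, *Tgfbr1* and *Smad5* still passed with the length trend removed, and 0 fell. *Bmpr2* was at 400.0, 639 and 382 in untreated AT3 tumors and at 637, 2663 and 2864 in NAM-treated ones. It alone of the 14 passed in M/D-driven tumors, as lower (-0.87, SE 0.33), and the difference between the models was 2.75 (SE 0.68). Without M/D NAM-treated 1 its effect there no longer passed (-0.57, SE 0.23), *Id2* passed as higher (0.89), and the difference for *Bmpr2* was 2.45. Between untreated tumors, 7 Notch and tip cell genes were higher and 3 lower in M/D-driven tumors, and 12 BMP and TGF-beta genes higher and 1 lower. For the difference between models, 0 of the 14 Notch and tip cell genes passed. Of the 14 BMP and TGF-beta genes, 4 passed above 0, *Bmpr2* among them, and 1 below. Without M/D NAM-treated 1 these were 5 and 1.

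Of 14 genes of hemostasis and leukocyte adhesion, 5 rose in AT3 tumors and 0 fell. *Sele*, the gene of E-selectin, was at 7.25, 0 and 3.26 in untreated AT3 tumors and at 26.7, 32 and 26.4 in NAM-treated ones, close to the counting limit. *Icam1* (0.80), *Selp* (1.25), *Thbd* (0.73) and *Plat* (0.92) rose with it, while *Vwf* did not pass. *Thbd* and *Selp* no longer passed with the length trend removed, and *Ackr1* did (1.23). None of the 14 passed in M/D-driven tumors, with or without NAM-treated tumor 1, and between untreated tumors 9 were higher in M/D-driven tumors and 0 lower. The difference between models passed for *Sele* alone of the 14. Of 7 lymphatic endothelial genes *Mmrn1* was at 0 in every tumor, 0 of the 4 tested passed in AT3 tumors and 0 of the 6 tested in M/D-driven tumors. *Prox1*, the defining lymphatic factor gene, was at 0 to 8.7 normalized counts in the 6 AT3 tumors and at 14.6 to 112 in the 8 M/D-driven ones, each on the scale of its own model, and 5 of 6 lymphatic genes were higher in untreated M/D-driven tumors.

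*Vegfa* belongs to the genes that hypoxia induces. Of 19 other hypoxia genes, 5 rose after NAM in AT3 tumors (*Hif1a* 0.85, *Arnt* 0.73, *Slc2a1* 0.59, *Ndrg1* 0.64 and *Hk2* 1.29) and 3 fell (*Ankrd37* -0.80, *Bnip3* -1.04 and *Higd1a* -0.92). Only *Hif1a* rose with the length trend removed, and *Higd1a* and *Vhl* fell. The most abundant, *Ldha* and *Pgk1*, which act in glycolysis, were at -0.21 (SE 0.23) and -0.39 (SE 0.26) and did not pass, and *Ndrg1* alone passed in M/D-driven tumors (-1.14, SE 0.45), though not without NAM-treated tumor 1 (-0.74). Between untreated tumors 14 of the 19 were lower in M/D-driven tumors and 3 higher, as *Vegfa* was lower. The lower ones included *Bnip3* (-4.37, SE 0.45), *Ankrd37* (-3.81, SE 0.41), *Car9*, the carbonic anhydrase of hypoxic tumor cells (-3.35, SE 0.41), and *Pgk1* (-2.51, SE 0.29), and the higher ones *Hif1a* (1.51), *Arnt* (0.88) and *Hk2* (1.43). *Car9* was at 168 to 606 normalized counts in untreated M/D-driven and at 2249.8 to 3009 in untreated AT3 tumors, each on the scale of its own model. Of 9 angiogenesis inhibitors, *Vash1* (1.01) and *Angptl4* (0.63) rose in AT3 tumors, *Vash1* alone with the length trend removed, and *Adamts1* fell in M/D-driven tumors (-1.54, SE 0.30), where it was at 2933, 1829, 3323 and 4557 untreated and 781, 1137, 1239 and 1020.4 after NAM, without overlap. It passed without NAM-treated tumor 1 too (-1.41), where *Col18a1* also passed, as higher (0.59). Between untreated tumors 8 of the 9 were higher in M/D-driven tumors and 0 lower. For the difference between models, 3 of the 9 inhibitors and 3 of the 19 hypoxia genes passed above 0, and 0 below.

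Among the most abundant genes of the vessel lists, several did not pass after NAM in either model: *Nrp1* was at 0.35 (SE 0.25) in AT3 and 0.19 (SE 0.22) in M/D-driven tumors, *Svep1* at 0.09 (SE 0.32) and 0.32 (SE 0.47), *Cxcr4* at -0.17 (SE 0.38) and 1.03 (SE 0.45), *Id2* at -0.65 (SE 0.34) and 0.22 (SE 0.65), *Vcam1* at 0.57 (SE 0.36) and 1.05 (SE 0.67), and *Col18a1*, the source of endostatin, at 0.63 (SE 0.41) and -0.08 (SE 0.60). Of these, *Svep1* passed as lower in AT3 tumors and *Cxcr4* as higher in M/D-driven tumors with the length trend removed, and *Id2* and *Col18a1* as higher in M/D-driven tumors without NAM-treated tumor 1.

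Cell type markers were counted between untreated tumors as well, where 33.4% of all genes were higher and 22.8% lower in M/D-driven tumors. Higher there were 9 of 11 pericyte, 6 of 9 epithelial, 5 of 7 fibroblast, 7 of 7 adipocyte, 6 of 7 macrophage, 5 of 9 lymphocyte, 2 of 8 precursor B cell and 1 of 5 platelet markers tested, and 1 precursor B cell marker was lower, the precursor B cell and platelet lists lying below the share of all genes. The higher level of the 6 endothelial genes there stood beside higher markers of most stromal and immune cells, and their part in it was not tested.

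**Figure D5:**
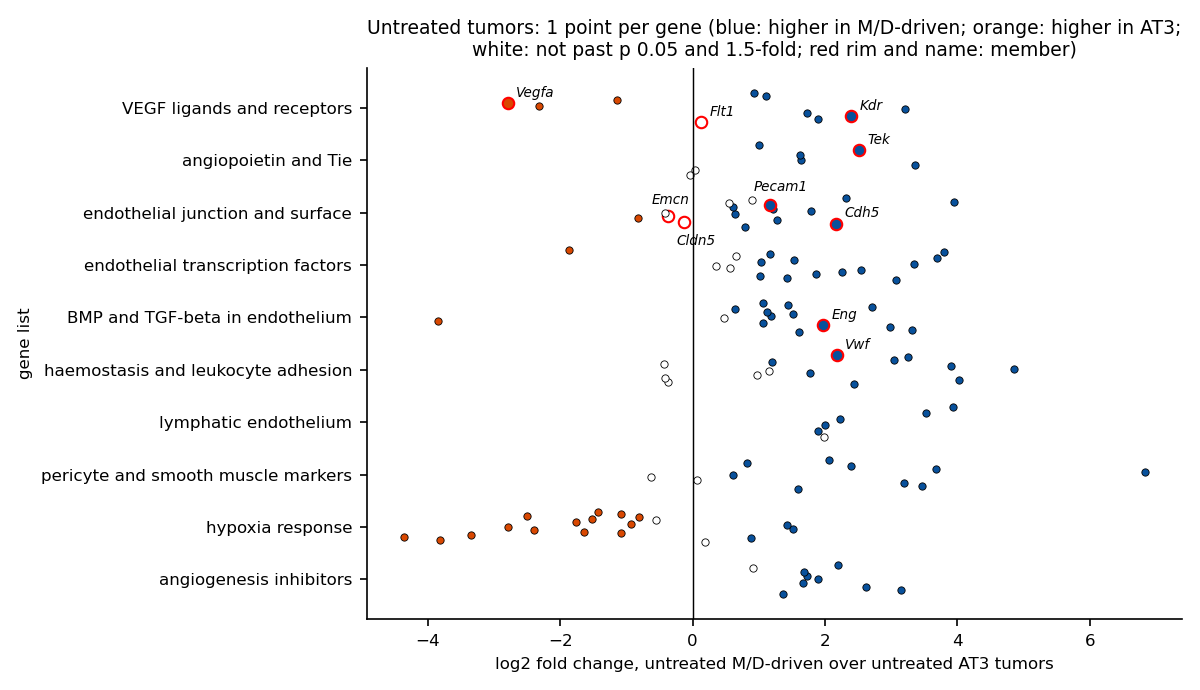
Log2 fold change of untreated M/D-driven over untreated AT3 tumors (horizontal axis, TMM-scaled) for the tested genes of the vessel and hypoxia lists, 1 point per gene and 1 row per list. The Notch and tip cell list is not drawn, and of its 14 genes 7 were higher and 3 lower in M/D-driven tumors. Most points of the vessel lists drawn are blue and lie right of 0, whereas 14 of the 19 hypoxia genes are orange and lie left of 0 with *Vegfa*.

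Within models, several of the 10 genes varied together over the 14 tumors, each value being taken from the mean of its model. Pearson's r was 0.86 for *Cdh5* with *Eng*, 0.86 for *Pecam1* with *Eng*, 0.84 for *Pecam1* with *Cdh5* and 0.83 for *Cdh5* with *Tek*. The lowest value was -0.54, for *Vwf* with *Emcn*. These points share library, depth and the NAM and length trends above, and the values are descriptions. The mean of the 9 endothelial genes was most closely matched, among 15404 genes, by *Ric1* (r = 0.97), *Tie1* (0.97), *Gpr4* (0.95), *Snx9* (0.94), *Fgd5* (0.94), *Polr3e* (0.93), *Adgrl4* (0.92), *Syvn1* (0.92, in a row joined with *Mir6988*), *Secisbp2* (0.91) and *Sema3g* (0.91). Without M/D NAM-treated 1, 3 of these stayed among the first 10, *Ric1*, *Tie1* and *Fgd5*. For *Vegfa* the nearest were *Tnn* (0.92), *Zfp36* (0.90), *Slc25a37* (0.89), *Mgarp* (0.85) and *Dlx1* (0.85), of which *Tnn* and *Zfp36* stayed among the first 5 without that tumor.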

How the data were processed

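Tumor RNA had been made into TruSeq mRNA libraries and sequenced as paired reads. The authors mapped reads with STAR 2.4.0 on mm10, counted those on constitutive regions of FAST DB genes, and scaled each library with a size factor from DESeq2; the submitters' processing notes also name FastQC, Picard and SAMtools. The deposited values are thus a normalized signal per gene, named normalized counts here. Every value is a whole multiple of 1 read (100% of values within 0.01 of a read), and recovered reads served edgeR and DESeq2 and gave the depth, 40936868 to 84178009 reads per tumor. Of 56414 genes 19524 were at 0 throughout, and 0 columns of values were left unmapped.

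Tumors were grouped from the sample titles. Genes with a mean of at least 10 in 1 group compared were tested with limma 3.58.1 (trend) on log2(value + 1), so fold changes are on that scale and understate those of low genes. Thresholds were p at most 0.05, unadjusted, and 1.5-fold; Benjamini-Hochberg adjusted p covers all genes tested. The untreated models were compared on TMM-scaled reads (edgeR 4.0.16). Alternatives were pseudocounts of 0.5 and 5, no filter and a minimum of 50, other scalings, edgeR, DESeq2 1.42.0, a replicate block, leaving out each tumor, and a spline with 4 degrees of freedom on transcript length and GC content removed from each tumor. Lengths and GC content come from GENCODE transcripts. The tests across genes were also run on simulated data, whose outcome is not given here. A length trend was added there alike to all tumors of 1 group, unlike in the AT3 tumors, where it differed within groups. R 4.3.3, Python 3.11.15, pandas 2.3.3 and scipy 1.17.1 were used.

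Genes to name were the 10 genes and, from 18 lists fixed by function or cell type, those past the thresholds under NAM and the 2 most abundant of a list, plus the 10 genes most like the mean of the 9 endothelial genes and the 5 most like *Vegfa*. Members and lists were chosen with earlier results of these data known. Of the genes named, *Car9*, *Epcam*, *Prox1*, *Mmrn1*, *Tal1*, *Vegfb*, *Vegfc*, *Vegfd* and those that passed only under an alternative (*Esam*, *Plvap*, *Sox18*, *Klf2*, *Ackr1*, *Hey1*, *Vhl* and *Lum*) fall outside this rule and were chosen after their values were seen. Of 207 list entries 2 were not found, as synonyms of entries present. The calls of the lymphocyte markers under NAM in AT3 tumors are not reported here.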

Additional observations from a re-analysis of the deposited data

Results flagged for a closer look

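*Eng*, the endoglin gene, was at 14053 normalized counts in M/D NAM-treated 1 and at 5087 to 6161 in the other 3 NAM-treated M/D-driven tumors. The gap between that tumor and the next was 0.88 of the range of the group, above Dixon's critical value for 4 samples. Of 20 such tests over the 10 genes and both groups of 4 tumors, 1 gave a flag, and chance gives about 1 in 20.

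For *Cldn5* the NAM effect in AT3 minus that in M/D-driven tumors was -1.70 on the log2 scale and passed the unadjusted threshold only (adjusted p = 0.317 by limma), as 14.9% of all genes did. It no longer passed with the length trend removed, with TMM scaling, with the replicate block, or in 8 of the 14 fits that left out 1 tumor, among them the one without M/D NAM-treated 1 (-1.28). In M/D-driven tumors 2 of the NAM-treated values (1497 and 3348) lay above the highest untreated value of 1375, and in AT3 tumors all 3 lay below the lowest untreated one.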

How the results depend on the processing

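With a block for the replicate number, which does not pair the tumors (same-numbered deviations correlated at -0.44 to 0.11 in M/D-driven and -0.16 to 0.26 in AT3 tumors), 479 genes were higher and 522 lower after NAM in M/D-driven tumors, and 2702 and 2380 in AT3 tumors; of the 10 genes 0 and the same 6 passed, and *Cldn5* lost its difference between models (0 genes of 10). The block drops M/D untreated 4 from the untreated comparison.

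Of the 10 genes, removing the length and GC trend left 3 past the thresholds in AT3 tumors (3 with the block too, and 3 with all 14 tumors in 1 fit), and leaving out 1 tumor gave 3 to 8. In M/D-driven tumors leaving out 1 tumor gave 0 to 1. For the difference between models 0 passed with TMM scaling, with the trend removed, with the block or with both, and 0 to 2 when 1 tumor was left out; between untreated tumors 7 passed in all 7 such fits. Over all genes, in M/D-driven tumors 2180 passed without the filter, 859 with a minimum of 50, 2092 by DESeq2, 745 with the block and the trend removed, 2132 with 14 tumors in 1 fit and 784 to 2712 when 1 tumor was left out, instead of 1350. In AT3 tumors 2581 passed with the trend removed, 2733 with the block too and 1618 to 6765 when 1 tumor was left out, instead of 4458. For the difference these were 2132, 1719 and 1838 to 4574 instead of 3377, and between untreated tumors 10752 to 12586 when 1 tumor was left out. Upper-quartile scaling split AT3 calls into 1459 higher and 3492 lower instead of 2358 and 2100, and moved the median of all genes to -0.26. It split M/D-driven calls into 915 and 561 instead of 658 and 692, where edgeR gave 992 and 645 and DESeq2 1287 and 805.

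Signs changed for genes that had not passed. In M/D-driven tumors, leaving out 1 tumor gave *Cdh5* values from -0.12 to 0.46, with -0.05 without NAM-treated 1, *Emcn* from -0.093 to 0.37, with -0.073 without NAM-treated 2, *Eng* from -0.076 to 0.41 and *Vwf* from -0.18 to 0.47. With the length trend removed, with or without the block, *Flt1* was at -0.17 and *Vwf* at -0.25 in AT3 tumors, and at -0.59 and -0.40 for the difference. For the difference, *Pecam1* was at -0.10 and *Flt1* at -0.23 with upper-quartile scaling, and *Flt1* from -0.18 to 0.56 when 1 tumor was left out, below 0 in 5 of 14 fits. Between untreated tumors *Flt1* was at -0.043 with DESeq2 size factors, -0.53 with upper quartiles, -0.77 with the trend removed, with and without the block, and -0.11 to 0.28 when 1 tumor was left out. *Cldn5* there was at 0.11 as deposited, 0.17 with the trend removed, and -0.44 to 0.21 when 1 tumor was left out. The causes were not tested. Without M/D NAM-treated 1, chosen as an alternative after seeing the data, 3 of the 10 genes most like the endothelial genes and 2 of the 5 most like *Vegfa* remained. The lowest value of the 10 genes in any tumor was 60.9 normalized counts, and precision is limited by 3 or 4 tumors per group with 1 library each.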

Other observations

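Ratios of normalized counts within a tumor, chosen after the values were seen, do not depend on the scaling of tumors, but can carry the length trend. How often other pairs of genes separate the groups was not computed, so a lack of overlap here is a description only. Of single genes, 22.6% had groups without overlap after NAM in AT3 tumors, and 53.9% between untreated tumors. *Flt1* over *Kdr*, the 2 receptors of VEGF-A, ran from 1.06 to 1.90 in untreated and from 0.75 to 3.43 in NAM-treated M/D-driven tumors, and from 5.2 to 11.2 in untreated and from 3.14 to 3.85 in NAM-treated AT3 tumors. AT3 tumors thus held several *Flt1* reads for each *Kdr* read, fewer of them after NAM, with no overlap between the 2 AT3 groups. *Cldn5* over *Cdh5*, tight over adherens junction, was at 0.134 to 0.219 and 0.179 to 0.384 in M/D-driven tumors and at 0.547 to 1.13 and 0.118 to 0.409 in AT3 tumors. *Emcn* over *Cdh5* was at 0.206 to 0.365 and 0.148 to 0.478 in M/D-driven tumors, and at 0.850 to 3.08 and 0.304 to 0.989 in AT3 tumors, where the groups overlapped.

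*Vegfa* over *Kdr*, the ligand over its main receptor, was at 3.17 to 7.93 in untreated and 2.56 to 21.2 in NAM-treated M/D-driven tumors. In AT3 tumors it was at 135 to 276 untreated and 25.9 to 112 after NAM. All 6 AT3 values lay above all 8 M/D-driven ones, and the NAM-treated AT3 tumors all lay below the untreated ones.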
